A study of Mus musculus with 6 samples.

Results

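The serpins outside the α1-antitrypsin cluster were examined in biliary epithelial cells of the mouse liver, which form the lining of its bile ducts. The set comprised every row of the deposited expression table whose symbol begins with Serpin, without Serpina1a to Serpina1e, Serpinc1 and Serping1, and held 35 of 25302 rows. Total RNA was sequenced from 3 Control and 3 Sox9cKO samples after ribosomal RNA depletion, and the study compared these groups. The Control genotype was Sox9fl/fl. The Sox9cKO genotype was Sox9fl/fl:AlbCre+/-, in which Cre recombinase under the albumin promoter is added to the same floxed alleles of Sox9, a transcription factor gene. Floxed Sox9 was therefore common to both groups, and the presence of Cre and the loss of Sox9 cannot be told apart. The albumin promoter is active in hepatocytes and their fetal precursors, the hepatoblasts, from which biliary cells also arise. The age and sex of the mice and the number of animals behind a sample are not given in the sources used here, so p-values measure the spread between these samples.

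Serpins are serine protease inhibitors that act as suicide substrates: the protease cleaves an exposed reactive centre loop and is then trapped in a covalent complex. They are grouped in clades. Clade A holds many plasma proteins made by the liver, clade B holds mainly intracellular inhibitors, and some serpins inhibit no protease and instead carry hormones or fold collagen. In the liver, hepatocytes secrete most plasma serpins, among them inhibitors of clotting and of the dissolution of fibrin clots.

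Promoter sequences are shown for the called genes that had an entry in the RefSeq promoter table, because these genes moved in the same direction. Of the 35 serpins 25 had an entry, among them Serpina7, Serpind1, Serpinf1 and Serpinf2. Serpina6 and Serpina10 had none. The coordinates are those of GRCm38.p6, which differs from the GRCm39 build in the submitters' processing notes. Each window covers the 200 bases before the annotated start, 5′ to 3′ on the strand of the gene. Capitals mark matches on either strand to any of 5 motifs: the SOX cores ACAATG and ACAAAG, the HNF1 core GTTAAT, the AP-1 site TGANTCA and the TATA box TATAAA.
Serpina7, chrX:139085237-139085436, minus strand: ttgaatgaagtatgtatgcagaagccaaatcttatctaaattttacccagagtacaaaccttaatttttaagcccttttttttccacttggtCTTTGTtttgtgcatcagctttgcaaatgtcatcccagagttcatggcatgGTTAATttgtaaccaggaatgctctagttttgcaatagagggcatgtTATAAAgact
Serpind1, chr16:17331171-17331370, plus strand: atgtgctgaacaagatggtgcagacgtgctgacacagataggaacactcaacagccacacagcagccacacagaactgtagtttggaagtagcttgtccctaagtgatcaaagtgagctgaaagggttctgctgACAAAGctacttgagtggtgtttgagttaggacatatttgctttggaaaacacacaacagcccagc
Serpinf1, chr11:75422624-75422823, minus strand: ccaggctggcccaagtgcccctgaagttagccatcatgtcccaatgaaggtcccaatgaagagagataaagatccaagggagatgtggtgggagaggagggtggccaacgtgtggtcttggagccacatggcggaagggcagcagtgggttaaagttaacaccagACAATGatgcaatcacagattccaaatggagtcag
Serpinf2, chr11:75439502-75439701, minus strand: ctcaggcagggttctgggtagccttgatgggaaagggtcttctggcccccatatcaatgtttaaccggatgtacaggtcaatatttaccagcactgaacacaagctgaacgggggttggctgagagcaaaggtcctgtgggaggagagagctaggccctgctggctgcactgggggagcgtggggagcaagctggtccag
For Serpina7 and Serpinf2 a short stretch just after the annotated start was not found unbroken in a GENCODE transcript of the gene. For Serpind1 and Serpinf1 it was found. This search did not test where transcripts start.

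The Serpina7 window held 3 matches: a SOX core on the other strand (CTTTGT), the HNF1 core and the letters TATAAA. The last match lay at -10 to -5 from the annotated start. Serpind1 held ACAAAG and Serpinf1 held ACAATG, while the Serpinf2 window held none of the 5 motifs. Over all 27025 promoter windows of the same length, ACAAAG was present in 13.3%, ACAATG in 8.86%, GTTAAT in 5.09%, TGANTCA in 5.55% and TATAAA in 10.6%. Among the 25 serpin windows, 5 held ACAAAG, 1 held ACAATG, 1 held GTTAAT, 3 held TGANTCA and 4 held TATAAA. A match describes the letters of the window and no binding was measured.

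Values are normalized reads: the reads of a gene over the size factor of that library. The libraries held 11883496 to 16191990 reads assigned to genes. Sox9 itself was at 6211, 6043 and 6293 normalized reads in Control replicates 1 to 3 and at 3363, 3165 and 3340 in Sox9cKO replicates 1 to 3, a log2 fold change of -0.91 (SE 0.10, adjusted p = 0.00501, limma). The sum of 16 biliary markers was 213177 to 263982 in Control and 195710 to 260914 in Sox9cKO samples, so the labelled cell type was present in every library. Transcripts of other cells were present too. The sum of the hepatocyte markers (17 of 18 with a row) was 25763 to 39990 in Control and 52484 to 84467 in Sox9cKO, with no overlap. Of the 17, 5 were called higher (Fga, Fgb, Fgg, Apob and Tat), beside 2.03% of all tested genes (limma). The sum of 12 endothelial markers ranged from 2001 to 44514 in Control and from 7235 to 45594 in Sox9cKO, and it was lowest in replicate 3 of each group. Mesenchymal and stellate markers (12) summed to 3484 to 4245 and 4223 to 5949. Mesothelial markers (6) summed to 954 to 983 and 1158 to 2173, a difference carried by Msln (335 to 1408 on average, adjusted p = 0.0159, limma, and up to 0.0709 without 1 sample), while the median log2 fold change of the 6 was -0.15. Leukocyte markers (8 of 12 with a row) summed to 1060 to 1139 and 1512 to 1831, a difference carried by Csf1r (761 to 1450 on average, adjusted p = 0.0142, and up to 0.0725 without 1 sample). The other 5 tested leukocyte markers had log2 fold changes below 0, with a median of -0.57 over the 6 tested. Platelet and erythroid markers (6) summed to 140 to 211 and 120 to 156. Xist, which is transcribed from the inactive X chromosome, was at 31917, 6.50 and 32279 in Control 1 to 3 and at 27852, 6.62 and 10.2 in Sox9cKO 1 to 3. The Y-linked gene Ddx3y was at 2316, 2256 and 2323 in the 3 libraries low in Xist and at 0 in the others, so 2 of 3 Control and 1 of 3 Sox9cKO libraries were of the Xist-high kind.

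Of the 35 serpins 24 reached a mean of 10 normalized reads and were tested, Serpina7 only through its Sox9cKO samples. In Sox9cKO 7 were called higher (limma, Benjamini-Hochberg adjusted p below 0.05 over 17153 genes) and 0 were called lower. They included Serpina6, Serpina7, Serpina10, Serpind1, Serpinf1 and Serpinf2 and made up 29.2% of the tested serpins, beside 2.97% of all tested genes called in either direction, 2.03% called higher and 0.939% called lower. At an unadjusted p below 0.05 there were 11 serpins, beside 17.8% of all tested genes. edgeR also called 7 higher, beside 1.82% of all genes, and DESeq2 called 9 higher, beside 4.2%. With the replicate number as a block, 9 serpins were called higher (37.5%), beside 5.06% of all genes. The block added Serpine2 and Serpinb6b. The groups did not overlap, with Sox9cKO higher, in 11 tested serpins, beside 13.4% of all tested genes, and with Sox9cKO lower in 1 (Serpini1), beside 10.8%. The median log2 fold change of the tested serpins was 0.78 (range -1.45 to 4.59), against 0.04 over all tested genes. This median was 0.0333 without Control replicate 3 and 0.0499 with the endothelial marker sum as a covariate. With that covariate the same 7 serpins were called higher, beside 2.6% of all genes. With Xist as a covariate 5 serpins were called higher, beside 1.52% of all genes, and Serpina7 and Serpinf2 were lost.

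**Figure D1:**
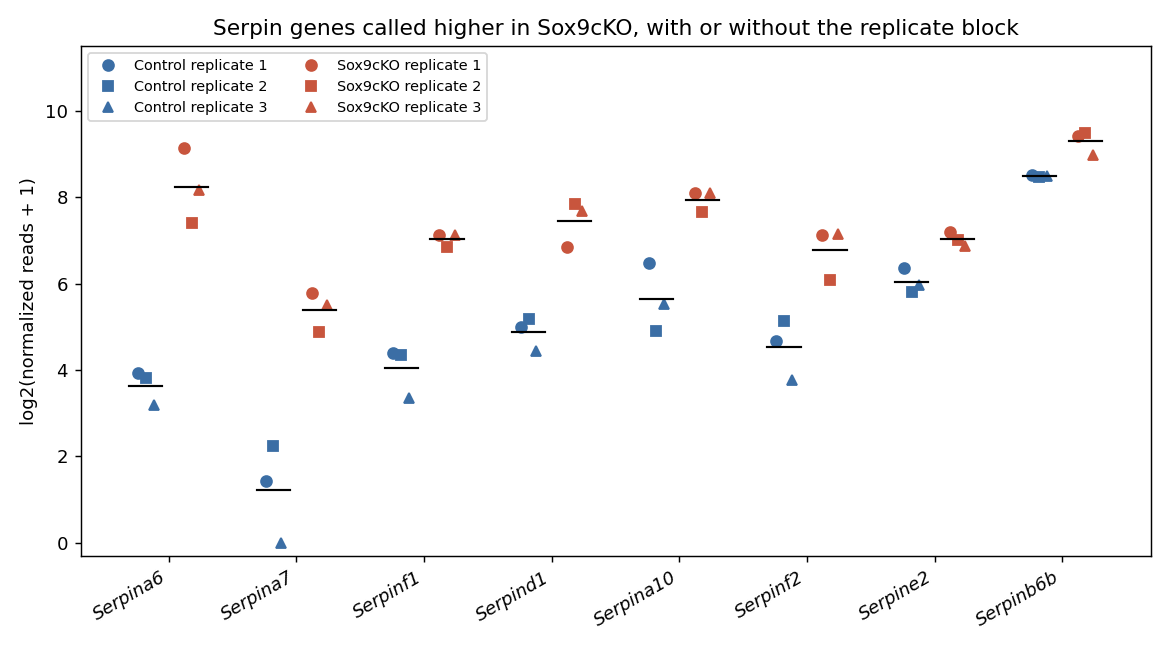
The vertical axis gives log2(normalized reads + 1) of serpin genes called with or without the replicate block. Blue symbols are the 3 Control and red symbols the 3 Sox9cKO samples, the shape gives the replicate number and the black lines are group means. For each gene every Sox9cKO sample lies above every Control sample.

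The plasma carriers and anticoagulants held the 2 highest log2 fold changes of the set. Of 6 members 4 were tested and all 4 were called higher in Sox9cKO, at log2 fold changes of 2.31 to 4.59. They encode the carriers of glucocorticoids (Serpina6) and thyroxine (Serpina7) and the anticoagulants protein Z-dependent inhibitor (Serpina10) and heparin cofactor II (Serpind1). Serpina7 averaged 1.80 normalized reads in Control and 42.1 in Sox9cKO, so it passed the filter only through the group in which it was high. In bulk RNA, a greater share of cells that express a gene and more RNA per cell cannot be told apart.

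Serpina6 (ENSMUSG00000060807), corticosteroid-binding globulin, was at 14.3, 12.99 and 8.06 normalized reads in Control replicates 1 to 3 and at 560, 167 and 288 in Sox9cKO replicates 1 to 3. The groups were far apart, and the Sox9cKO samples themselves spread more than 3-fold. The means were 11.8 ± 3.28 and 338 ± 201 (SD, n = 3), a 28.7-fold ratio. Its log2 fold change was 4.59 (SE 0.45, 95% interval 3.53 to 5.66, adjusted p = 0.00445, limma). The call was kept in all 6 fits that left out a sample, at log2 fold changes of 4.14 to 5.01. Per kilobase of exon (GENCODE release M21), its mean level moved from 6.69 to 192 normalized reads.

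Serpina7 (ENSMUSG00000031271), the thyroxine-binding globulin gene on the X chromosome, was near its detection limit in Control. It had 2, 4 and 0 reads in Control replicates 1 to 3 and 54, 30 and 39 reads in Sox9cKO replicates 1 to 3. Every Sox9cKO sample lay above every Control sample. On the log2 scale the fold change was 4.16 (SE 0.63, 95% interval 2.68 to 5.65, adjusted p = 0.0183, limma), and this size depends on the pseudocount: it was 2.79 with 5 and 5.54 with 0.1. The call ended with the pseudocount of 0.1 (adjusted p = 0.082) and with Xist as a covariate (0.0519). It also ended without Control replicate 1 (0.0749), Sox9cKO replicate 1 (0.0714) or Sox9cKO replicate 3 (0.0689).

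Serpina10 (ENSMUSG00000061947), whose product inhibits coagulation factors Xa and XIa, was at 88.3, 28.8 and 44.9 normalized reads in Control and at 272, 201 and 271 in Sox9cKO. Control replicate 1 was the highest of its group and still below the lowest Sox9cKO sample. The means were 54.0 ± 30.8 and 248 ± 40.3 (SD, n = 3), a 4.59-fold ratio, with a log2 fold change of 2.31 (SE 0.39, adjusted p = 0.0272, limma). The call ended without Control replicate 3 (adjusted p = 0.101) or without Sox9cKO replicate 1 (0.0866), 2 (0.0613) or 3 (0.0893), and without the intensity trend (0.0531). The log2 fold change remained between 1.94 and 2.74 in the 6 fits that left out a sample.

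Serpind1 (ENSMUSG00000022766), a thrombin inhibitor activated by dermatan sulfate and heparin, was at 31.1, 35.3 and 20.7 normalized reads in Control and at 114, 230 and 203 in Sox9cKO. Here Sox9cKO replicate 1 was the lowest of its group, where for Serpina6 it was the highest. The means were 29.0 ± 7.48 and 182 ± 60.3 (SD, n = 3), a 6.28-fold ratio, with a log2 fold change of 2.58 (SE 0.34, 95% interval 1.79 to 3.37, adjusted p = 0.00969, limma). The call was kept in all 6 fits that left out a sample, with adjusted p up to 0.0482. The remaining members of this group, Serpina11 and Serpina12 (vaspin), lay below the filter.

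Among the serpins that act on plasmin and its activation, Serpinf2, which limits fibrinolysis at the step of plasmin, rose in Sox9cKO. Serpine2 passed with the replicate block and with DESeq2 but not in the limma fit without the block, and Serpini1 was not called.

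Serpinf2 (ENSMUSG00000038224), α2-antiplasmin, the main plasma inhibitor of plasmin, was at 24.4, 34.3 and 12.7 normalized reads in Control and at 138, 67.1 and 140 in Sox9cKO. Replicate 2 was the highest Control and the lowest Sox9cKO sample, and the log2 difference within that pair was 0.95, against 2.46 and 3.37 in the others. The means were 23.8 ± 10.8 and 115 ± 41.7 (SD, n = 3), a 4.84-fold ratio, with a log2 fold change of 2.26 (SE 0.44, adjusted p = 0.0458, limma). This call was the closest to the threshold. It ended without Control replicate 1 (adjusted p = 0.153), Control replicate 3 (0.11), Sox9cKO replicate 1 (0.13) or Sox9cKO replicate 3 (0.122), with Xist as a covariate (0.098), without the intensity trend (0.0711) and with a minimum mean of 50 (0.0521).

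Serpine2 (ENSMUSG00000026249), protease nexin 1, which inhibits thrombin, urokinase and plasmin at the cell surface, was at 80.7, 54.8 and 61.1 normalized reads in Control and at 145, 129 and 117 in Sox9cKO. The groups did not overlap and were 1.99-fold apart, from 65.5 ± 13.5 to 130 ± 14.4 (SD, n = 3). The log2 fold change of 0.99 (SE 0.22) had an adjusted p of 0.064 (limma), or 0.028 with the replicate block, 0.0746 with edgeR and 0.0137 with DESeq2.

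Serpini1 (ENSMUSG00000027834), neuroserpin, an inhibitor of tissue plasminogen activator, was at 55.5, 48.3 and 43.8 normalized reads in Control and at 36.8, 17.0 and 31.7 in Sox9cKO. It was the only tested serpin of the set in which every Sox9cKO sample lay below every Control sample. The log2 fold change of -0.83 (SE 0.34, 95% interval -1.62 to -0.03) did not pass the test (adjusted p = 0.261, limma, or 0.142 with the replicate block). Serpine3 and Serpinb2 (an inhibitor of urokinase) lay below the filter.

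**Figure D2:**
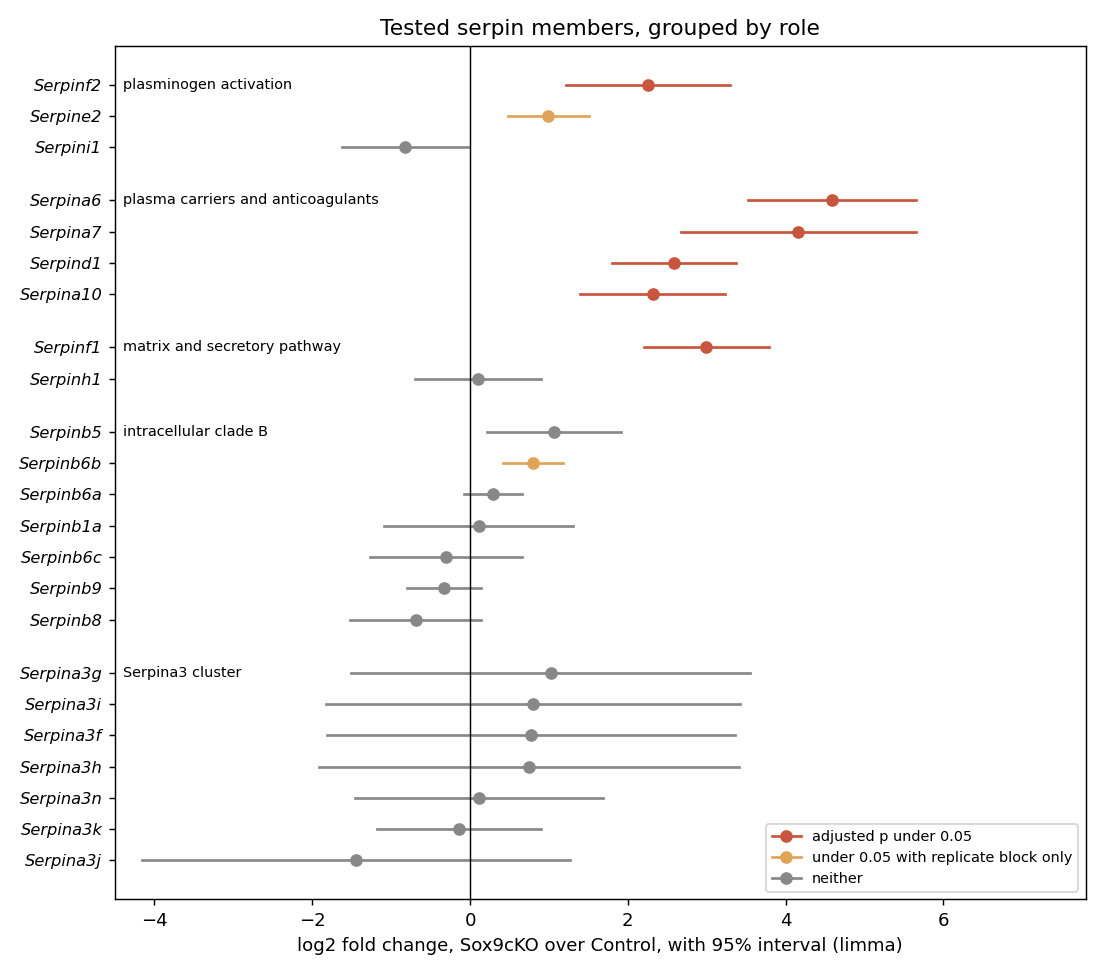
The horizontal axis gives the log2 fold change of Sox9cKO over Control from limma with its 95% interval, for the tested serpins described here, grouped by role. The called genes are in red and those that limma called with the replicate block only in orange; the intervals of the Serpina3 genes other than Serpina3k and Serpina3n are the widest.

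The 2 serpins of the matrix and secretory pathway differed from each other. Serpinf1 (ENSMUSG00000000753) encodes pigment epithelium-derived factor, a secreted serpin that inhibits no protease and is known for restraining vessel growth. It was at 20.2, 19.5 and 9.22 normalized reads in Control and at 138, 113 and 139 in Sox9cKO. The Sox9cKO samples lay close together and far above Control, at 130 ± 14.7 against 16.3 ± 6.14 (SD, n = 3). This gave a log2 fold change of 2.99 (SE 0.34, 95% interval 2.20 to 3.78, adjusted p = 0.00611, limma), and the call was kept in all 6 fits that left out a sample.

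Serpinh1 (ENSMUSG00000070436) encodes Hsp47, the collagen chaperone of the endoplasmic reticulum. It was at 1336, 761 and 577 normalized reads in Control replicates 1 to 3 and at 1248, 860 and 671 in Sox9cKO replicates 1 to 3. The groups overlapped, and replicate 1 was the highest and replicate 3 the lowest in both. Its log2 fold change was 0.10 with a 95% interval of -0.70 to 0.90 (adjusted p = 0.921, limma), an interval that holds changes of either sign, and quantile normalization turned it below 0. Per kilobase of exon it was the most abundant of these serpins, at 365 in Control and 379 in Sox9cKO.

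The intracellular clade B serpins comprised 9 genes, of which 7 were tested and 0 were called, with 2 at an unadjusted p below 0.05 (17.8% of all tested genes). edgeR called 0 of them and DESeq2 called 1, Serpinb6b. They protect cells from their own or from incoming proteases such as granzyme B and cathepsins.

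Serpinb6b (ENSMUSG00000042842), one of the mouse genes related to the intracellular inhibitor SERPINB6, was at 365, 355 and 361 normalized reads in Control and at 682, 713 and 500 in Sox9cKO. The Control samples lay within a narrow range below all Sox9cKO samples. The means were 360 ± 5.16 and 632 ± 115 (SD, n = 3), a 1.76-fold ratio. The log2 fold change of 0.79 (SE 0.16, 95% interval 0.41 to 1.17) narrowly missed the threshold (adjusted p = 0.0518, limma), and passed it with the replicate block (0.0232), with DESeq2 (0.00214) and without Sox9cKO replicate 3 (0.0319). It also passed with a pseudocount of 5 (0.0493), TMM factors (0.05 after rounding) or a minimum mean of 50 (0.0485).

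Serpinb6a (ENSMUSG00000060147) was at 1248, 1245 and 1153 normalized reads in Control and at 1844, 1418 and 1264 in Sox9cKO. The groups did not overlap, but the log2 fold change was 0.29 (95% interval -0.07 to 0.66, adjusted p = 0.383, limma). Serpinb6a, Serpinb6b, Serpinb6c and Serpinb6e are close paralogs, so reads may be split among them in error.

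Serpinb1a (ENSMUSG00000044734), an inhibitor of neutrophil elastase, was at 398, 529 and 455 normalized reads in Control and at 1166, 245 and 421 in Sox9cKO. Sox9cKO replicate 1 was the highest and Sox9cKO replicate 2 the lowest of all samples. Its log2 fold change was 0.11 (95% interval -1.08 to 1.30, adjusted p = 0.943, limma), and without Sox9cKO replicate 1 it was -0.51.

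The other clade B genes gave no call. Serpinb5, maspin, was at 20.6 ± 3.06 normalized reads in Control and 46.6 ± 20.1 in Sox9cKO (SD, n = 3), without overlap, at a log2 fold change of 1.06 (adjusted p = 0.189, limma). Serpinb9, the inhibitor of granzyme B, was at 385 ± 76.0 and 305 ± 47.2, a log2 fold change of -0.33 (adjusted p = 0.454). Serpinb8 and Serpinb6c had log2 fold changes of -0.69 and -0.31.

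The Serpina3 cluster, mouse genes that correspond to the single human gene for α1-antichymotrypsin, comprised 10 rows, of which 7 were tested. With limma, edgeR and DESeq2 alike 0 were called, and 0 had an unadjusted p below 0.05. Serpina3f to Serpina3i differed far more between replicates than between groups. They are near-identical paralogs whose reads may be shared, and Serpina3h is annotated as a transcribed pseudogene.

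Serpina3f (ENSMUSG00000066363) was the most abundant of the cluster, at 443, 1633 and 79.5 normalized reads in Control replicates 1 to 3 and at 1127, 1141 and 224 in Sox9cKO replicates 1 to 3. The highest and the lowest sample were both Control, 20.5-fold apart. Its log2 fold change was 0.77 (SE 1.10, 95% interval -1.82 to 3.36, adjusted p = 0.772, limma), and it turned to -0.36 without Control replicate 3. Serpina3g was at 64.7, 274 and 13.8 in Control and at 201, 238 and 45.3 in Sox9cKO. Serpina3h and Serpina3i showed the same order of samples within Control, replicate 2 highest and replicate 3 lowest, and their highest and lowest samples were 25.5-fold and 28.3-fold apart. For Serpina3i the mean was slightly lower in Sox9cKO (140 ± 84.8 against 146 ± 186, SD, n = 3) while the log2 fold change was 0.80 (adjusted p = 0.766). The values for Serpina3g and Serpina3h turned to -0.04 and -0.44, and that for Serpina3i to -0.38, without Control replicate 3.

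The summed endothelial markers, at 13911, 44514 and 2001 in Control and 35430, 45594 and 7235 in Sox9cKO, were likewise lowest in Control replicate 3 and spanned 22.8-fold over the 6 samples. Per 1000 of these endothelial reads, a ratio chosen after the values were seen, Serpina3f was at 31.8, 36.7 and 39.7 in Control and at 31.8, 25.0 and 31.0 in Sox9cKO. The spread of Serpina3f over the 6 samples thus went from 20.5-fold to 1.59-fold. The same ratio spanned 1.48-fold for Serpina3g, 1.49-fold for Serpina3h and 2.004-fold for Serpina3i. For Serpina3k it spanned 17.0-fold, where the undivided level spanned 2.77-fold, and for Serpina3j it ran from 0 to 3.45. With the endothelial sum as a covariate the log2 fold changes of Serpina3f to Serpina3i lay between -0.30 and 0.03, with adjusted p of 0.422 to 0.961 (limma). The part of endothelial RNA in these levels was not tested beyond these values.

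**Figure D3:**
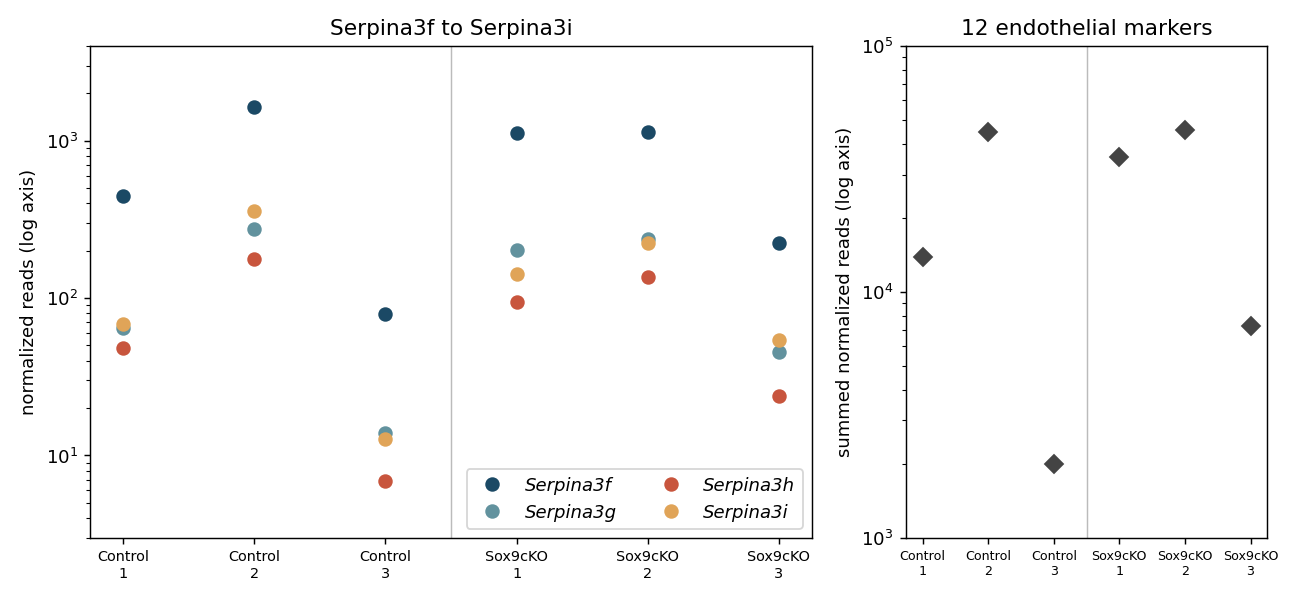
The left panel gives the normalized reads of Serpina3f, Serpina3g, Serpina3h and Serpina3i in each sample on a log axis, and the right panel the summed normalized reads of 12 endothelial markers, also on a log axis. Control replicate 3 is the lowest sample in both panels, at 79.5 for Serpina3f and 2001 for the markers.

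Serpina3k, Serpina3j and Serpina3n were less abundant than Serpina3f and were not called. Serpina3k was at 82.4, 117 and 55.3 normalized reads in Control and at 57.7, 138 and 49.8 in Sox9cKO, a log2 fold change of -0.14 (adjusted p = 0.912, limma). Serpina3n, the member known as an acute phase gene, was at 13.9 ± 11.6 and 13.1 ± 7.57 (SD, n = 3), a log2 fold change of 0.11 (adjusted p = 0.957). Serpina3j was at 18.7 ± 19.9 and 7.99 ± 8.55, a log2 fold change of -1.45 (adjusted p = 0.58).

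The 11 serpins below the filter had 11 to 38 reads over the 6 samples and at most 18 in any sample. Serpina11 had 1, 0 and 1 reads in Control and 9, 8 and 10 in Sox9cKO, and it was called when all rows were tested (adjusted p = 0.037, limma). Serpine3 had 6, 12 and 12 reads in Control and 3, 2 and 1 in Sox9cKO. Serpinb2 had 2, 13 and 1 reads in Control and 0 in each Sox9cKO sample, where a count of 0 allows up to 3 reads, and Serpinb6e had 6, 4 and 4 against 2, 0 and 0. The other 7 were Serpina3b, Serpina3l-ps, Serpina3m, Serpina4-ps1, Serpina9, Serpina12 and Serpinb9b. At this depth their differences could not be assessed.

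The clade A genes were also compared by their order on chromosome 12, taken from the RefSeq table for GRCm38.p6. Serpina10 and Serpina6 lie at one end and are followed by the α1-antitrypsin genes. The first 8 rows in that order, Serpina10, Serpina6, Serpina1b, Serpina1d, the pseudogene Gm8893, Serpina1a, Serpina1c and Serpina1e, were all called higher in Sox9cKO. Gm8893 averaged 1.49 normalized reads in Control and 28.6 in Sox9cKO, so it passed the filter only through Sox9cKO. The α1-antitrypsin genes are paralogs too, so reads may be shared among them and their calls may not be separate. Serpina11, Serpina9, Serpina12, Serpina4-ps1 and Serpina3b, next in order, were below the filter, and none of the tested Serpina3 genes was called. Serpinf1 and Serpinf2 neighbour each other on chromosome 11 and were both called.

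**Figure D4:**
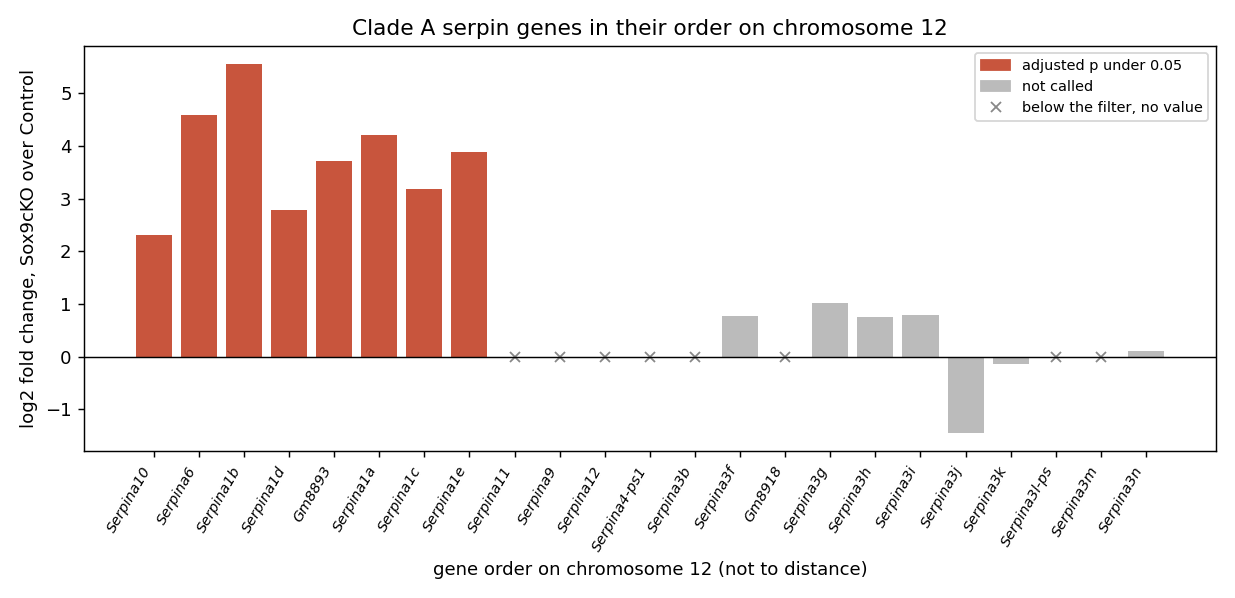
Bars give the log2 fold change of Sox9cKO over Control (limma) for the clade A serpin genes in their order on chromosome 12, without distances. The pseudogenes Gm8893 and Gm8918 lie among them. Red bars are called genes, grey bars are tested genes that were not called and crosses are rows below the filter; Serpina10 to Serpina1e are red and Serpina3f to Serpina3n grey.

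Outside the set, the 5 α1-antitrypsin genes had log2 fold changes of 2.79 (Serpina1d), 3.18 (Serpina1c), 3.88 (Serpina1e), 4.21 (Serpina1a) and 5.55 (Serpina1b), all called. Serping1, the C1 inhibitor, was called with 0.88 (adjusted p = 0.0274, limma), whereas Serpinc1, antithrombin, was at -0.45 (adjusted p = 0.313) and Agt, the serpin angiotensinogen, at 0.16 (adjusted p = 0.744). For Serpinc1 every Sox9cKO sample lay below every Control sample. Of these 8 genes 6 were thus called higher, and Serpinc1 and Agt, also plasma serpins of hepatocytes, were not.

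The targets and partners of these serpins were examined in lists of genes. The counts of all lists stand beside 2.03% of all tested genes called higher and 0.939% called lower with limma. With the replicate block, which called more genes, 5.06% of all tested genes were called higher. In the plasminogen system 3 of 14 tested genes were called higher and 0 lower, with a median log2 fold change of 0.68, or 6 higher with the replicate block. Vitronectin (Vtn), an adhesive plasma and matrix protein that binds the urokinase receptor, was at 535 ± 211 normalized reads in Control and 9432 ± 1408 in Sox9cKO (SD, n = 3), a log2 fold change of 4.22 (adjusted p = 0.00173, limma). Plasminogen (Plg), the precursor of plasmin, was at 114 ± 36.1 and 1032 ± 189, a log2 fold change of 3.21 (adjusted p = 0.00319). Urokinase (Plau), a target of Serpine2, was at 242, 598 and 299 in Control and 1244, 1349 and 1178 in Sox9cKO, with no overlap, at a log2 fold change of 1.83 (adjusted p = 0.0277, up to 0.104 in the fits that left out a sample). Tissue plasminogen activator (Plat) was at 2464 ± 1041 and 7599 ± 2519, a log2 fold change of 1.67 that passed with the replicate block but not without it (limma, adjusted p = 0.00123 and 0.0721). The urokinase receptor Plaur was at 7870 ± 1477 and 9126 ± 2046 (adjusted p = 0.652).

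In the thrombin and coagulation system 3 of 19 tested genes were called higher and 0 lower, with a median log2 fold change of 0.63. Prothrombin (F2), the precursor of the protease that Serpind1 inhibits, was at 54.6, 53.8 and 48.4 normalized reads in Control and 187, 140 and 186 in Sox9cKO. The groups were clearly apart, at a log2 fold change of 1.68 (adjusted p = 0.0071, limma). Factor XII (F12) and plasma kallikrein (Klkb1), proteases of the contact system, had log2 fold changes of 4.19 (adjusted p = 0.00333) and 2.58 (adjusted p = 0.036, up to 0.141 in the fits that left out a sample). Thrombomodulin (Thbd), an endothelial cofactor of thrombin, ranged from 25.3 to 1456 within Control and was not called.

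**Figure D5:**
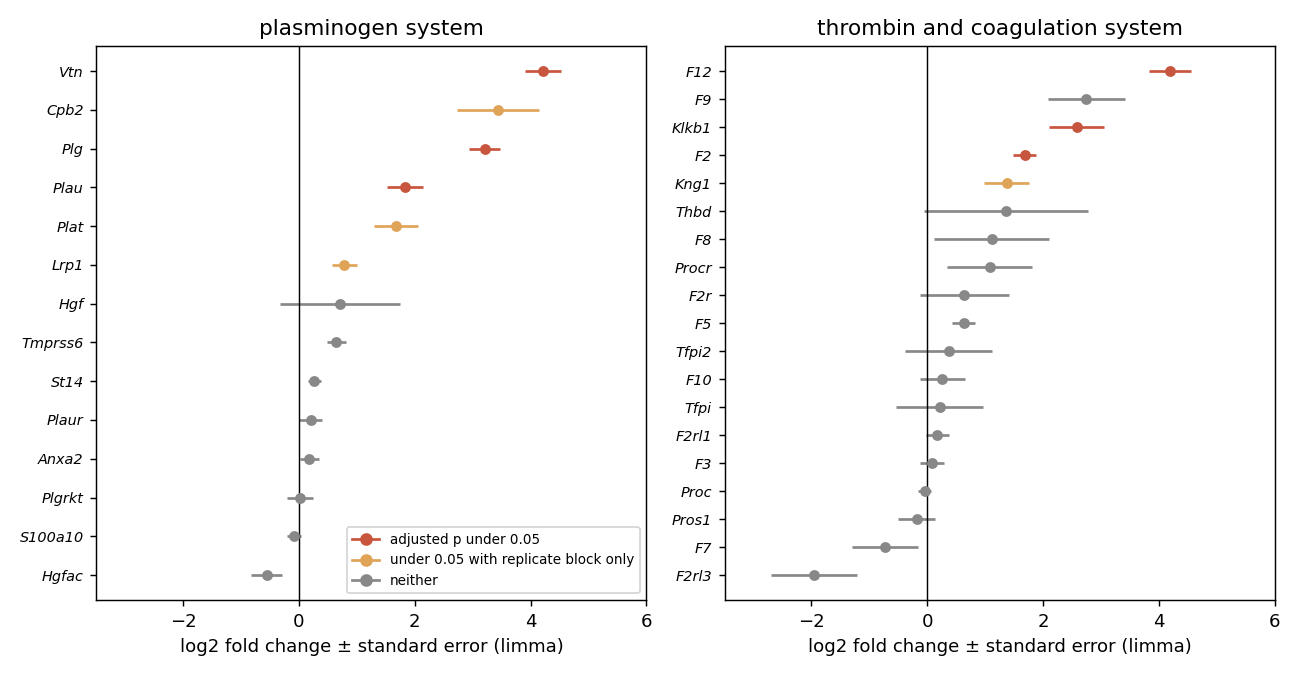
The horizontal axes give log2 fold changes of Sox9cKO over Control with standard errors (limma) for the tested genes of the plasminogen system (14, left) and of the thrombin and coagulation system (19, right). Red points are called genes and orange points genes that limma called with the replicate block only; Vtn at 4.22 and F12 at 4.19 lead the panels.

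For the clade B serpins, 0 of 10 tested granzyme, leukocyte protease and cathepsin genes were called with limma (median log2 fold change 0.10), and 2, Ctsc and Ctsd, were called higher with the replicate block. In the list of procollagens, the clients of Hsp47, and of collagen modifying enzymes, 2 of 25 were called higher, or 5 with the replicate block. The 2 were Col18a1 (log2 fold change 0.83) and the enzyme gene Bmp1 (0.84). The list median was 0.51. Of the 6 fits that left out a sample, 0 kept the call of Col18a1 and 1 kept that of Bmp1. Among clearance and PEDF receptors 1 of 13 was called higher (median 0.47), or 4 with the replicate block. This was Plxdc2, described as a receptor of PEDF, at 51.3, 61.3 and 87.6 normalized reads in Control and 389, 465 and 318 in Sox9cKO. Its log2 fold change was 2.55 (adjusted p = 0.00412, limma), and the groups did not overlap. The PEDF-binding lipase Pnpla2 was at 1074 ± 77.4 and 1181 ± 21.9 (SD, n = 3, adjusted p = 0.567).

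Other inhibitors of serine proteases were listed too, and 3 of 16 tested genes were called higher, or 8 with the replicate block, at a median log2 fold change of 0.72. The pregnancy zone protein gene (Pzp), a broad protease trap, rose from 878 ± 142 to 8244 ± 1531 normalized reads (SD, n = 3), a log2 fold change of 3.23 (adjusted p = 0.00114, limma). The inter-α-trypsin inhibitor heavy chains Itih4 and Itih2 rose by log2 fold changes of 3.19 and 1.60 (adjusted p = 0.00445 and 0.00649). Of the inducible acute phase genes 6 of 14 tested were called higher (Hp, Hpx, C3, Lcn2, Lbp and Il6ra), with a median log2 fold change of 0.72. With the replicate block 6 were called higher and 1, Stat3, lower. Over all 17153 tested genes the block called 1381, of which 868 were higher. Of the 14 tested, 10 had a log2 fold change above 0, and the lowest was -0.62 (Cp). Saa1, Saa2, Saa3 and Orm1 lay below the filter. Haptoglobin (Hp) went from 25.6 ± 2.55 to 2499 ± 1165 normalized reads. The log2 fold change of Serpina3n, also an acute phase gene, was 0.11.

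The hepatocyte markers moved in part with the plasma serpins. Albumin (Alb) was at 27683, 17384 and 18944 normalized reads in Control and at 32147, 21399 and 35363 in Sox9cKO. These ranges overlapped, and the log2 fold change was 0.47 (adjusted p = 0.380, limma). This was the middle value, and so the median, of the 17 tested hepatocyte markers. Of the 17, 13 had a log2 fold change above 0, beside 54.2% of all tested genes. With limma 5 of them were called higher and 0 lower, beside 2.03% and 0.939% of all tested genes. Transthyretin (Ttr), a plasma thyroxine carrier like the product of Serpina7, had a log2 fold change of -0.44 (adjusted p = 0.570). The asialoglycoprotein receptor gene Asgr1 was at 35.6 ± 12.7 and 13.9 ± 5.30 (SD, n = 3). Its log2 fold change of -1.31 was the lowest of the 17 (adjusted p = 0.164, limma). Fibrinogen beta (Fgb) and Apob, in contrast, were called with log2 fold changes of 3.62 and 2.97. The part of hepatocyte RNA in the serpin levels was not tested.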

How the data were processed

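RNA was measured in 3 Control and 3 Sox9cKO samples of biliary epithelial cells, from stranded total RNA libraries with molecular identifiers, per the labels' protocols. The authors deposited a normalized signal per gene and sample. The submitters' processing notes name DESeq2 1.36.0 and GRCm39. The aligner, the counter, the annotation, the use of strand and of the molecular identifiers are not given in the sources used here, so antisense and overlapping genes may share reads. Dividing each library by its smallest nonzero value gave whole numbers for 100% of values (tolerance 0.001), taken as reads with size factors of 0.868 to 1.19. The lowest row total was 10 reads. The table held 0 columns of other samples, and 1 row without an Ensembl identifier (EGFP).

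The 17153 rows that averaged at least 10 normalized reads were tested as log2(value + 1) with limma 3.58.1 in R 4.3.3 (lmFit, eBayes with an intensity trend), two-sided, at a Benjamini-Hochberg adjusted p below 0.05. Fold changes are on this scale, which understates changes of low genes. The design had assumed normalized values, so the test remained. edgeR 4.0.16 (quasi-likelihood, 491 genes called) and DESeq2 1.42.0 (1214) were run on the whole reads. Sample numbers come from the titles. Same-numbered samples deviated together across genes (r = 0.207, 0.472 and 0.542). The main fit was unpaired and took no account of that number. A further fit took it as a replicate block and called 1381 genes against 510 without it. Also tried were leaving out each sample, dropping the intensity trend, quantile normalization, TMM factors, pseudocounts of 0.1 and 5, and a minimum mean of 50 or none. Covariates for Xist and for the endothelial marker sum were added after seeing the data.

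The values of 1 serpin, counted in the totals, are not reported here. The members, lists and tests were chosen with earlier results of these data known. Values are given by sample for the other serpins called with or without the block, the 5 most abundant tested serpins, and serpins at 3 reads or fewer in each sample of a group when the other group averaged at least 10. The other serpins and the uncalled list genes with printed values were chosen after their values were seen. Up to 5 called genes of a list are named by p-value, with Il6ra and Serping1 named beyond that. Promoters came from the RefSeq table for GRCm38.p6. Exon lengths came from GENCODE release M21. The scripts were tested on simulated data.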

Additional observations from a re-analysis of the deposited data

How the results depend on the processing

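In the limma fit 510 genes, 7 serpins and 24 genes of the partner lists were called. With the replicate block, 1381 genes and 41 list genes were called, and among the serpins the block changed no call other than those of Serpine2 and Serpinb6b. edgeR with the replicate block called 1160 genes, and DESeq2 called 1214 genes and 39 list genes. Leaving out 1 sample gave 199 to 387 genes, 4 to 7 serpins and 16 to 20 list genes, with fewer samples in each fit. Without the intensity trend 4 serpins were called. In the other settings 5 to 9 serpins were called: 6 with a pseudocount of 0.1 and with a minimum mean of 50 (which left Serpina7 untested), 5 with Xist as a covariate, and 7 to 9 elsewhere. Serpina6, Serpind1 and Serpinf1 were called under every alternative run. The median log2 fold change of the serpins (0.78) was 0.31 with edgeR, 0.0499 with the endothelial covariate and 0.0333 to 1.08 without 1 sample; the cause was not tested. None of the reversals concerned a called gene. Without 1 sample, the lowest and highest log2 fold changes were -0.36 and 1.81 for Serpina3f, -0.0396 and 2.07 for Serpina3g, -0.44 and 1.81 for Serpina3h, -0.38 and 1.98 for Serpina3i, -0.59 and 0.14 for Serpina3k, -0.44 and 0.72 for Serpina3n, -0.51 and 0.61 for Serpinb1a, and -0.17 and 0.44 for Serpinh1. Serpina3i was at -0.12 with edgeR and -0.11 with DESeq2, and Serpina3n at -0.139 with edgeR, -0.0188 with edgeR and the block, and -0.130 with DESeq2. The endothelial covariate turned Serpina3f to -0.26, Serpina3h to -0.30, Serpina3i to -0.21, Serpina3n to -0.32 and Serpinh1 to -0.0669. Quantile normalization turned Serpinh1 to -0.00552. Depth limited the 11 serpins below the filter, and the floor for a count of 0 covers counting error only, while the 95% intervals rest on the spread between samples.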
